A study of Oryza sativa with 9 samples.

Results

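Plant nuclear chromosomes carry stretches of plastid and mitochondrial DNA, and in rice large integrants of this kind lie on chromosomes 4, 10 and 12. Loci annotated within them often look like organelle genes for photosystems, ribosomal proteins or respiratory subunits. A read from the plastid or the mitochondrion can match such a copy as well as it matches the organelle genome, so a level at these loci is not by itself a level of nuclear transcription. Organelle RNA mostly lacks the long poly(A) tails of nuclear mRNA, and little of it usually passes poly(A) selection.

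The loci described here were the rows of the expression table with locus numbers from LOC_Os10g21190 to LOC_Os10g21430 and from LOC_Os04g16700 to LOC_Os04g16880, described as plastid-like copies, and from LOC_Os12g33900 to LOC_Os12g34120, described as mitochondrion-like copies. They were also selected on a measured value, a summed level above 0 over the 6 libraries. Of 106 rows in the ranges, 101 met this rule: 39 of 42 on chromosome 10, 39 of 40 on chromosome 4 and 23 of 24 on chromosome 12. The whole table had 31263 rows with any read. The summed level was thus used to choose the members, and the ranges were proposed with earlier results of these data known, so the counts below describe these loci. Just inside the threshold, the lowest summed FPKM was 0.119 on chromosome 10 (LOC_Os10g21328, 1 read in all), 0.0443 on chromosome 4 (LOC_Os04g16760, 2 reads) and 0.0577 on chromosome 12 (LOC_Os12g34120, 2 reads), and the 5 rows left out had no read.

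The samples were described as whole rice seedlings, 14 days old. They were kept for 3 h in 20% PEG8000, a polymer that withdraws water from roots. Wild-type plants (NIP, 3 repeats each run on 2 lanes) were compared with 1 line that overexpresses the SET-domain protein SDG708 (SDG708-YFP-1, 3 repeats), so that 9 samples gave 6 libraries of polyadenylated RNA. Both genotypes were treated with PEG and untreated plants were not analysed here, so the comparison is between genotypes under PEG. Lanes were labelled for the wild type only, hence lane and genotype cannot be told apart, and since the labels do not state separate cultures for the repeats, a p-value reflects only how far these 6 libraries spread, which may be technical. With 1 overexpression line, the effect of SDG708 and that of the line cannot be told apart either.

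The table gave FPKM, reads scaled to the length of the locus and to the library size, from which whole reads and locus lengths were recovered for all 101 members. Implied library sizes were 13.3 to 24.9 M reads, at which 1 read in a locus of 1 kb was worth 0.0402 to 0.0752 FPKM. Wild-type replicate 2, the library with the most reads, stood apart from the other wild-type libraries at these loci, and the values below are therefore given library by library. The table pairs no locus with the name SDG708, and the level of the transgene is not given here. Of 9 loci listed as tissue markers, the 6 of green shoot summed to between 4472 and 4837 FPKM in the wild type and between 7721 and 8236 in the overexpression line, and all 6 passed the test as higher in the overexpression line. The 3 root markers summed to between 2.39 and 3.31 FPKM in all 6 libraries, and 1 of them was listed at 0 throughout. Nearly all of that sum was LOC_Os02g51110 (2.39 to 3.27 FPKM), while LOC_Os02g44310 reached at most 0.119 FPKM. Root markers were thus low in libraries described as whole seedlings, and how much root RNA these libraries held was not tested. In mixed tissue, fewer cells of a type and less RNA per cell cannot be told apart. The part of tissue composition in the results below was not tested.

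The label was first set against the recovered lengths, a property that the choice of members did not use. RefSeq lists 108 protein-coding plastid genes of rice with 83 distinct coding lengths, and 53 mitochondrial ones with 51. A length equal to that of a plastid gene was found for 22 of 39 members on chromosome 10 (56.4%) and 21 of 39 on chromosome 4 (53.8%), against 1 of 23 on chromosome 12 and 1.85% of rows outside the insertions. A length equal to that of a mitochondrial gene was found for 7 of 23 members on chromosome 12 (30.4%), 4 of 39 on chromosome 4 and 0 of 39 on chromosome 10, against 1.24% of outside rows. The 4 on chromosome 4 all have 282 bases, also the length of plastid rpl23 and rps19, and are among its 21 plastid matches. The outside shares were not matched for length. The median recovered length was 711, 699 and 1008 bases on chromosomes 10, 4 and 12, against 2912 for outside rows. An equal length is a description and identifies no gene, and the other members are given by locus number alone.

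On chromosomes 10 and 4, the order of these lengths also mostly followed the plastid genome, in opposite directions. On chromosome 10, 18 members had the length of exactly 1 plastid gene, and of 17 steps from 1 such member to the next, 15 went forward in RefSeq's plastid gene order. On chromosome 4, 8 of 10 such steps went backward. Chromosome 12 had only 4 such members for the mitochondrial order, with 1 step forward and 2 back. Members of chromosomes 10 and 4 shared 7 lengths. Where both had the length of psaA, a core subunit of photosystem I, LOC_Os10g21250 held 64 reads over the 6 libraries and LOC_Os04g16760 held 2. Where both had a length of 1629 bases, the balance was the other way, with 14 reads on LOC_Os10g21194 and 92 on LOC_Os04g16734. The sources used here do not say how reads that match several places were assigned, so the level of any single copy is uncertain.

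All 3 insertions had higher summed levels in the wild type than in the overexpression line, and wild-type replicates 1 and 3 carried most of that difference. On chromosome 10, the members' FPKM summed to 245.8, 60.1 and 247.8 in wild-type replicates 1 to 3 and to 33.2, 65.0 and 25.2 in overexpression replicates 1 to 3. The groups overlapped there, since overexpression replicate 2 lay above wild-type replicate 2, a rank set by the single locus LOC_Os10g21190. Without that locus the sums were 245.3, 49.8 and 245.3 in the wild type against 33.0, 28.6 and 25.0 in the overexpression line, and the groups did not overlap.

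On chromosome 4, the sums were 89.4, 28.9 and 165.0 FPKM in the wild type against 22.9, 18.0 and 13.3 in the overexpression line. On chromosome 12, they were 72.9, 20.4 and 58.0 FPKM against 17.9, 12.4 and 8.49. On both chromosomes every wild-type library lay above every overexpression library, but replicate 2 of the wild type was much closer to the overexpression libraries than to its own group. It reached 0.243, 0.227 and 0.312 of the mean of wild-type replicates 1 and 3 on chromosomes 10, 4 and 12, and 1.46, 1.60 and 1.58 times the overexpression mean.

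**Figure D1:**
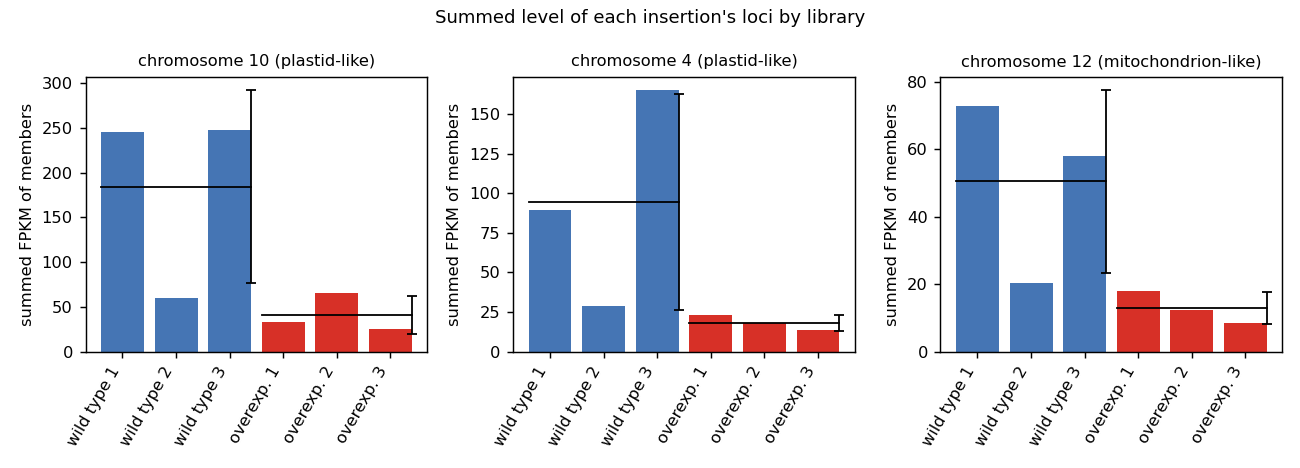
Summed FPKM of the members of each insertion (vertical axis, linear from 0) in each of the 6 libraries, with a horizontal line at the mean of each genotype and a bar of 1 SD (n = 3 libraries). Wild-type replicates 1 and 3 are far above the other 4 libraries in all 3 panels, and wild-type replicate 2 is near the overexpression libraries.

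The group means were 184.6 ± 107.8 and 41.1 ± 21.0 FPKM on chromosome 10 (SD, n = 3), 94.4 ± 68.2 and 18.1 ± 4.81 on chromosome 4, and 50.4 ± 27.0 and 12.9 ± 4.71 on chromosome 12. The ratios of these means, wild type over overexpression, were 4.49, 5.22 and 3.91. The wild-type SD was more than 50% of its mean in each insertion, with coefficients of variation (CV, SD as a percentage of the mean) of 58.4%, 72.2% and 53.6%. A single member supplied much of 2 of the sums. Without LOC_Os10g21192, 40.7% of the summed FPKM, the ratio on chromosome 10 was 2.62, and without LOC_Os04g16722, 47.4% of it, that on chromosome 4 was 3.12. Without LOC_Os12g34108 the ratio on chromosome 12 was 3.74. Leaving out wild-type replicate 3 took the ratio on chromosome 4 to 3.27. As reads scaled to library size, without division by length, the ratios on chromosomes 10, 4 and 12 were 3.10, 10.1 and 4.50.

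In reads, the members held 9761, 4077 and 16574 in the wild type against 1392, 2042 and 1074 in the overexpression line, between 0.0061% and 0.0774% of the reads in the table. The table's reads exceeded the implied library size in each wild-type library (ratios of 1.07, 1.05 and 1.07) and fell short of it in each overexpression library (0.994, 0.996 and 0.971), so this ratio too was higher in the wild type. When each library was scaled to its own table reads instead, the ratios of the summed levels were 4.16, 4.83 and 3.62.

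Counted over all 101 members with no filter, the mean was higher in the wild type for 87, which is 86.1% against 52.3% of all rows with a read. For 35 of the 101 all 3 overexpression libraries lay below all 3 wild-type libraries, against 20.6% of all rows, and for 2 all 3 lay above, against 15.9%. The 35 comprised 13 on chromosome 10, 12 on chromosome 4 and 10 on chromosome 12, and the 2 were LOC_Os10g21360 and LOC_Os04g16822. Wild-type replicate 2 was the lowest of its group for 60 members (59.4%, against 30.8% of all rows). Depth limited many members: 34 had fewer than 10 reads in all, and 20 had no read in the overexpression line against 1 with none in the wild type.

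The test on single loci was limma on log2(FPKM + 1), over all 18569 rows of the table that reached 1 FPKM in 3 or more libraries, with Benjamini-Hochberg adjustment at 0.05. It called 20.0% of rows lower and 14.3% higher in the overexpression line. Only 25 of the 101 members passed the filter. Of these, 14 fell in the overexpression line (7 of 11 on chromosome 10, 2 of 6 on chromosome 4 and 5 of 8 on chromosome 12), 0 rose and 11 did not pass. For 2 of the 25, both on chromosome 12, no overexpression library reached an FPKM of 1, so their entry rested on the wild type. Without any filter, 19 of 101 were called lower and 0 higher, where 9.65% and 7.93% of all rows were.

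The 14 calls depended on single libraries. Without wild-type replicate 2 there were 21, without wild-type replicate 3 there were 7, and without overexpression replicate 3 there were 4, of 25 in each case. Over all rows, the calls lower in those 3 fits were 4098, 2213 and 1960, against 3706 with every library. In those 3 fits the number of calls thus moved in the same direction across the table. The same held without overexpression replicate 2 (10 members, 2225 rows). It did not hold without wild-type replicate 1 (13 members, 3838 rows) or overexpression replicate 1 (14 members, 2195 rows). By insertion, the calls on chromosomes 10, 4 and 12 were 9, 5 and 7 without wild-type replicate 2, 3, 2 and 2 without wild-type replicate 3, 4, 2 and 4 without overexpression replicate 2, and 2, 1 and 1 without overexpression replicate 3. Scaling each library to its table reads left 14 calls among the members and turned the split over all rows from 3706 lower and 2654 higher to 2079 lower and 3682 higher. Over the alternatives run, the adjusted p of the 14 members (limma) ranged from 1.38e-05 to 0.147, and 3 of them, LOC_Os10g21310, LOC_Os04g16770 and LOC_Os12g34010, were called lower under each alternative that tested them. The minimum mean FPKM of 5 left LOC_Os04g16770 and LOC_Os12g34010 untested. In the authors' deposited table, with its p-values adjusted here, 35 members were lower at 0.05 (12, 12 and 11), against 16.2% of all rows. LOC_Os10g21360 was the 1 member higher, against 3960 of 31262 rows.

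Among the chromosome 10 copies, the highest level was that of LOC_Os10g21192, whose 1062 bases equal the coding length of both psbA and psbD, the genes for the reaction centre proteins of photosystem II. Its FPKM was 109.6, 11.2 and 142.2 in the wild type against 5.88, 3.53 and 2.91 in the overexpression line. Every wild-type library was above every overexpression library, and replicate 2 was far below replicates 1 and 3, with 296 reads against 2021 and 3023. The means were 87.7 ± 68.2 and 4.11 ± 1.57 (SD, n = 3). In limma the log2 fold change was -3.54 (SE 0.81, adjusted p = 0.0122), which became adjusted p = 0.0521 with limma's voom weights on the recovered reads.

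LOC_Os10g21230 and LOC_Os10g21310 had no length in common with a plastid gene. LOC_Os10g21230 stood at 38.4, 6.70 and 27.9 FPKM in the wild type and at 3.58, 4.01 and 3.48 in the overexpression line. LOC_Os10g21310 stood at 25.3, 8.03 and 21.8 against 4.52, 4.42 and 2.62. Neither locus overlapped between genotypes. In the overexpression line the CV was 7.74% for LOC_Os10g21230 and 27.8% for LOC_Os10g21310. The log2 fold changes were -2.14 (SE 0.51, adjusted p = 0.0144, limma) and -1.88 (SE 0.37, adjusted p = 0.00664, limma). The call on LOC_Os10g21230 was lost with voom (adjusted p = 0.0533), without wild-type replicate 3 (0.0572) and without overexpression replicate 3 (0.0526).

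LOC_Os10g21314 has the length of rpl20, a gene for a protein of the large plastid ribosomal subunit, and stood at 22.7, 2.34 and 10.3 FPKM in the wild type and at 1.04, 1.63 and 1.69 in the overexpression line. LOC_Os10g21236 has the length of atpI, a membrane subunit of the plastid ATP synthase, and stood at 8.29, 2.59 and 6.98 against 2.02, 1.28 and 0.741. In both loci wild-type replicate 2 was the lowest of its group and still above the overexpression libraries. Both fell, by 1.98 (SE 0.58, adjusted p = 0.0321) and 1.49 (SE 0.34, adjusted p = 0.0128) on the log2 scale in limma. The call on LOC_Os10g21314 was lost under voom (adjusted p = 0.112, or 0.147 on rows of at least 10 reads), with no filter (0.0871), with overexpression replicates 1 and 2 as 1 sample (0.0849) and without any one of wild-type replicate 3 or overexpression replicates 1 to 3 (0.0769 to 0.0969), and that on LOC_Os10g21236 without wild-type replicate 3 (0.0519) or overexpression replicate 3 (0.0536).

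LOC_Os10g21268 and LOC_Os10g21196 moved less. LOC_Os10g21268 was at 6.63, 4.08 and 9.19 FPKM in the wild type and at 3.53, 2.51 and 2.09 in the overexpression line, and its log2 fold change was -1.0 (SE 0.24, adjusted p = 0.0149, limma). LOC_Os10g21196 was at 8.58, 4.48 and 7.62 against 4.01, 2.75 and 3.77, with -0.78 (SE 0.20, adjusted p = 0.0211, limma). Neither overlapped between genotypes, though wild-type replicate 2 came close to the highest overexpression library in both. LOC_Os10g21268 did not pass without overexpression replicate 2 (adjusted p = 0.0517) or 3 (0.0615), and LOC_Os10g21196 did not without wild-type replicate 3 (0.0767) or overexpression replicate 2 (0.0754) or 3 (0.0549), with no filter (0.0604) or with overexpression replicates 1 and 2 as 1 sample (0.0514).

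LOC_Os10g21190, the lowest locus number of the range, behaved unlike its neighbours. It held 17, 539 and 109 reads in the wild type against 3, 1044 and 7 in the overexpression line, or 0.464, 10.3 and 2.58 FPKM against 0.107, 36.4 and 0.183. Replicate 2 was the highest library of each genotype, and the groups overlapped across their whole range. Its CV was 116% in the wild type against 171% in the overexpression line, each the highest of the chromosome 10 members with a mean FPKM of at least 1. limma gave -0.09 (SE 1.31, adjusted p = 0.964), and the sign turned when any one of wild-type replicate 2 or overexpression replicates 1 and 3 was left out.

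Among loci too low for the filter, LOC_Os10g21250, with the length of psaA, had 32, 12 and 19 reads in the wild type against 0, 0 and 1 in the overexpression line. LOC_Os10g21298, with the length of psbE, a cytochrome b559 subunit of photosystem II, had 16, 3 and 11 against 0, 0 and 0. The wild type was higher at LOC_Os10g21298 by at least 7.23-fold, taking 3 reads over the overexpression group as the floor. LOC_Os10g21266, with the length of atpB, the catalytic subunit of the plastid ATP synthase, had 84, 27 and 71 reads against 8, 7 and 14. None of these overlapped between genotypes, and none had a limma test in the main fit.

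The members of chromosome 10 were not alike along the range. Of those from LOC_Os10g21192 to LOC_Os10g21324, 13 had at least 30 reads. Of these, 12 were at least 2-fold lower in the overexpression line, against 1.72% of all rows with that many reads. Wild-type replicate 2 was the lowest of its group in all 13, against 35.6% of all such rows. The median ratio of wild-type to overexpression means was 4.58 over members of the 13 with reads in both groups. It was 4.76 with LOC_Os10g21298 at its bound. Of those after LOC_Os10g21324, 5 had at least 30 reads, 0 were 2-fold lower, and the median ratio was 1.34. LOC_Os10g21360, the one among them with the most reads, had 1.15, 0.953 and 1.01 FPKM in the wild type against 1.41, 1.18 and 1.34 in the overexpression line, and limma gave 0.18 (SE 0.09, adjusted p = 0.133). The point of division was chosen after the values were seen, and no test was made of it.

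**Figure D2:**
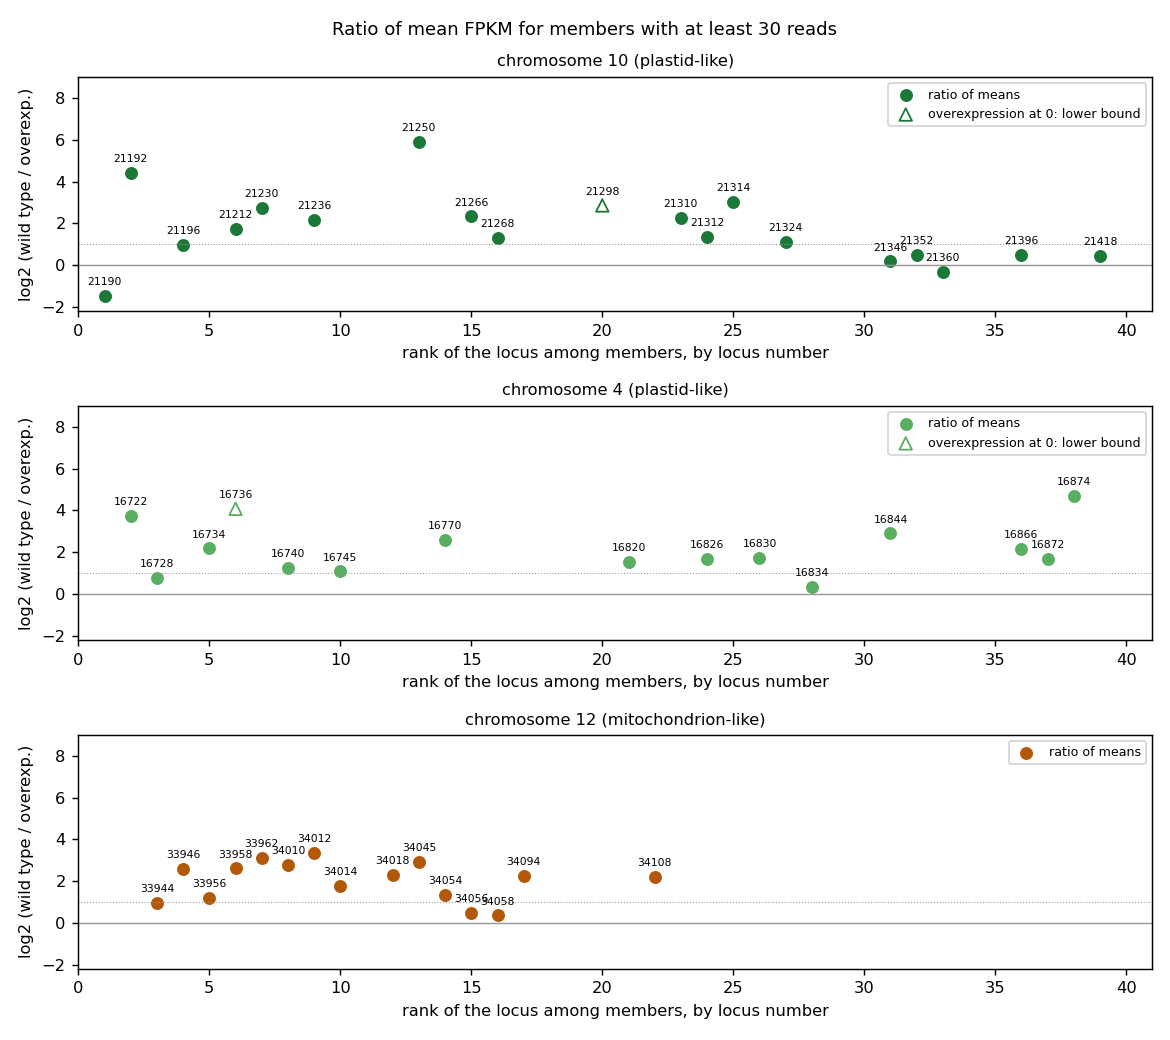
Log2 ratio of mean FPKM, wild type over overexpression (vertical axis), for the 49 members with at least 30 reads, by rank of the locus within its insertion (horizontal axis); labels are the last digits of the locus number. Filled points are ratios of means, open triangles are lower bounds for LOC_Os10g21298 and LOC_Os04g16736, which had no overexpression read, and the dotted line marks a 2-fold ratio; points above 0 are higher in the wild type, and the 5 rightmost points on chromosome 10 lie below the dotted line.

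On chromosome 4, LOC_Os04g16722 was the leading locus, with 2889, 1054 and 8344 reads in the wild type against 358, 157 and 154 in the overexpression line. Per length this was 39.6, 10.1 and 99.2 FPKM against 6.41, 2.75 and 2.02. The genotypes did not overlap, yet wild-type replicate 3 was far above replicate 1 as well as replicate 2. It fell by 3.02 on the log2 scale (SE 0.70, adjusted p = 0.0131, limma), and the call was lost without overexpression replicate 3 (adjusted p = 0.0547). LOC_Os04g16770, the other called member, stood at 7.79, 2.58 and 9.41 against 1.61, 0.944 and 0.708 FPKM, which limma put at -1.75 on the log2 scale (SE 0.36, adjusted p = 0.00836, limma), with no overlap.

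Several of the higher chromosome 4 loci did not pass. LOC_Os04g16866 was at 8.30, 1.87 and 12.4 FPKM in the wild type and at 1.96, 2.02 and 1.13 in the overexpression line, so that wild-type replicate 2 lay within the overexpression range. limma gave -1.41 (SE 0.49, adjusted p = 0.0538), and without wild-type replicate 2 it gave -2.06 (adjusted p = 0.000396, in a range over the alternatives up to 0.159). LOC_Os04g16745 and LOC_Os04g16728 have the lengths of rps14 and rps15, genes for proteins of the small plastid ribosomal subunit. LOC_Os04g16745 was at 7.20, 3.22 and 9.45 against 4.82, 3.53 and 1.06 FPKM (log2 fold change -0.91, SE 0.42, adjusted p = 0.128, limma), and LOC_Os04g16728 at 7.81, 2.80 and 4.21 against 1.93, 3.23 and 3.43 (-0.55, SE 0.29, adjusted p = 0.168, limma). In both, wild-type replicate 2 fell among the overexpression libraries, and without it both passed as lower (adjusted p = 0.0315 and 0.0312, in ranges over the alternatives up to 0.361 and 0.411).

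Among chromosome 4 members with a mean FPKM of at least 1, the widest spread in the wild type was that of LOC_Os04g16874, at 2.53, 0.554 and 13.1 FPKM, a CV of 125%, against 0.330, 0.184 and 0.104 in the overexpression line. Among the same members, the widest spread in the overexpression libraries was that of LOC_Os04g16844, at 0.157, 0.154 and 0.462 FPKM with 1, 1 and 4 reads, against 3.37, 0.0841 and 2.30 in the wild type. LOC_Os04g16736 had 32, 1 and 37 reads in the wild type and 0 in every overexpression library, at least 16.9-fold higher in the wild type with 3 reads over the group as the floor. Its wild-type replicate 2 had 1 read where the others had over 30, which places that library near the overexpression line at this locus.

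**Figure D3:**
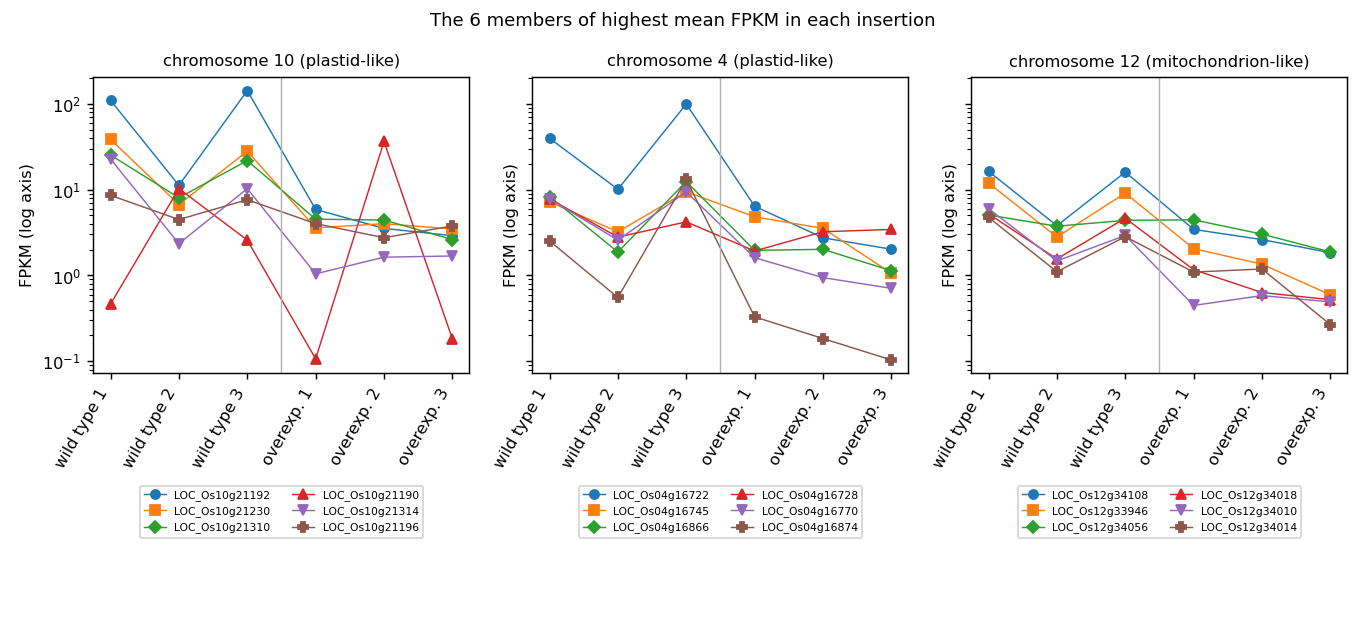
FPKM (log axis) in each library for the 6 members of highest mean FPKM in each insertion; each symbol is 1 locus, lines only join the values of a locus, and the vertical line separates wild-type from overexpression libraries. Most loci dip in wild-type replicate 2, whereas LOC_Os10g21190 peaks in replicate 2 of both genotypes, at 10.3 and 36.4 FPKM.

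In the mitochondrion-like copies on chromosome 12, LOC_Os12g34108 was highest, at 16.4, 3.79 and 16.0 FPKM in the wild type against 3.44, 2.62 and 1.84 in the overexpression line. LOC_Os12g33946 followed, at 11.9, 2.81 and 9.10 against 2.05, 1.35 and 0.595. In both, all wild-type libraries were above all overexpression libraries. Their log2 fold changes were -1.65 (SE 0.45, adjusted p = 0.0245, limma) and -1.81 (SE 0.43, adjusted p = 0.0138, limma). The call on LOC_Os12g34108 did not hold without a filter (adjusted p = 0.0707), under voom (0.0515), with overexpression replicates 1 and 2 as 1 sample (0.0569), or without any one of wild-type replicates 1 and 3 and overexpression replicates 2 and 3 (0.0520 to 0.0877). That on LOC_Os12g33946 did not hold without wild-type replicate 3 (0.0548) or overexpression replicate 3 (0.0568).

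LOC_Os12g34018 was at 5.21, 1.56 and 4.65 FPKM against 1.17, 0.633 and 0.523, or -1.35 on the log2 scale (SE 0.31, adjusted p = 0.0128, limma). LOC_Os12g34010 was at 6.001, 1.48 and 2.92 against 0.448, 0.583 and 0.492 (-1.44, SE 0.31, adjusted p = 0.0102, limma). LOC_Os12g33958, whose recovered length is 5989 bases, was at 4.01, 1.08 and 2.76 against 0.728, 0.295 and 0.267 (-1.26, SE 0.29, adjusted p = 0.0125, limma). None of the 3 overlapped between genotypes, but LOC_Os12g34010 and LOC_Os12g33958 are the 2 members that entered the test with no overexpression library at 1 FPKM. LOC_Os12g34018 was not called without wild-type replicate 3 (adjusted p = 0.0516) or overexpression replicate 3 (0.0529), nor LOC_Os12g33958 without overexpression replicate 3 (0.0511).

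LOC_Os12g34014, LOC_Os12g34012 and LOC_Os12g34045 have the lengths of the mitochondrial genes nad6, ccmC and rps7, which encode a subunit of respiratory complex I, a factor of cytochrome c maturation and a ribosomal protein. LOC_Os12g34014 was at 4.75, 1.11 and 2.83 FPKM in the wild type and at 1.10, 1.19 and 0.268 in the overexpression line, and overlapped through wild-type replicate 2. limma gave -1.0 (SE 0.35, adjusted p = 0.0574), and without wild-type replicate 2 it gave -1.38 (adjusted p = 0.00573, in a range over the alternatives up to 0.182). LOC_Os12g34012 had 55, 16 and 52 reads against 5, 2 and 2, and LOC_Os12g34045 had 32, 9 and 20 against 4, 1 and 1. Both were separated between genotypes and below the filter of the test.

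LOC_Os12g34056 differed from the others of its range. It was the only chromosome 12 member with the length of a plastid gene, ycf4, a factor of photosystem I assembly, and it was at 5.06, 3.75 and 4.39 FPKM in the wild type against 4.45, 3.03 and 1.88 in the overexpression line. Its wild-type CV of 14.9% was the lowest among the chromosome 12 members with a mean FPKM of at least 1, and the groups overlapped. limma gave -0.43 (SE 0.21, adjusted p = 0.143), and it was called lower without overexpression replicate 1 (adjusted p = 0.0306, in a range over the alternatives up to 0.396). At the other end, LOC_Os12g33962 had the highest wild-type CV among the chromosome 12 members with a mean FPKM of at least 1. That CV was 70.2%, at 4.06, 0.566 and 4.27 FPKM against 0.424, 0.345 and 0.259.

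The spread between replicates was large in both genotypes. Over members with a mean FPKM of at least 1, the median CV in the wild type was 57.5% on chromosome 10 (13 members), 54.1% on chromosome 4 (9) and 59.3% on chromosome 12 (11), against 9.82% over 18402 rows of the table. In the overexpression line the medians were 25.9%, 52.4% and 54.7%, against 6.13%. LOC_Os10g21298, at 0 in that line, has no CV there. The CV was higher in the wild type for 23 of the 32 members with a CV in both genotypes, 71.9%, beside 68.0% of all such rows. These CVs include counting error, which is larger in the overexpression line because its members held fewer reads.

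Most loci on either side of the insertions did not share these values. Of the 30 rows with reads on each side of each insertion, 120 of 180 had at least 30 reads, and 4 of the 120 were at least 2-fold lower in the overexpression line, against 37 of the 49 members with that many reads and 1.72% of all such rows. All 4 were among the 44 such rows around chromosome 12 (9.09%). Wild-type replicate 2 was the lowest of its group in 46 of the 120 and in 45 of the 49, against 35.6% of all such rows. The median wild-type CV of flanking rows with a mean FPKM of at least 1 was 10.8%, 10.6% and 9.52% around the insertions of chromosomes 10, 4 and 12. limma called 13 of 33 tested flanking rows lower and 4 higher around chromosome 10. It called 1 lower and 9 higher of 24 around chromosome 4, and 4 lower and 5 higher of 33 around chromosome 12. Over all tested rows the shares were 20.0% and 14.3%, so lower calls were more frequent than that around chromosome 10. With at least 30 reads, 30 of the 49 members had all 3 overexpression libraries below all 3 of the wild type. The share was 25.8% of all such rows and 34.9% of those flanking chromosome 10's insertion. Of the 49 members, 25 reached 30 reads although the overexpression libraries together had fewer than 30, so the share of 2-fold lower members partly follows from that minimum.

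**Figure D4:**
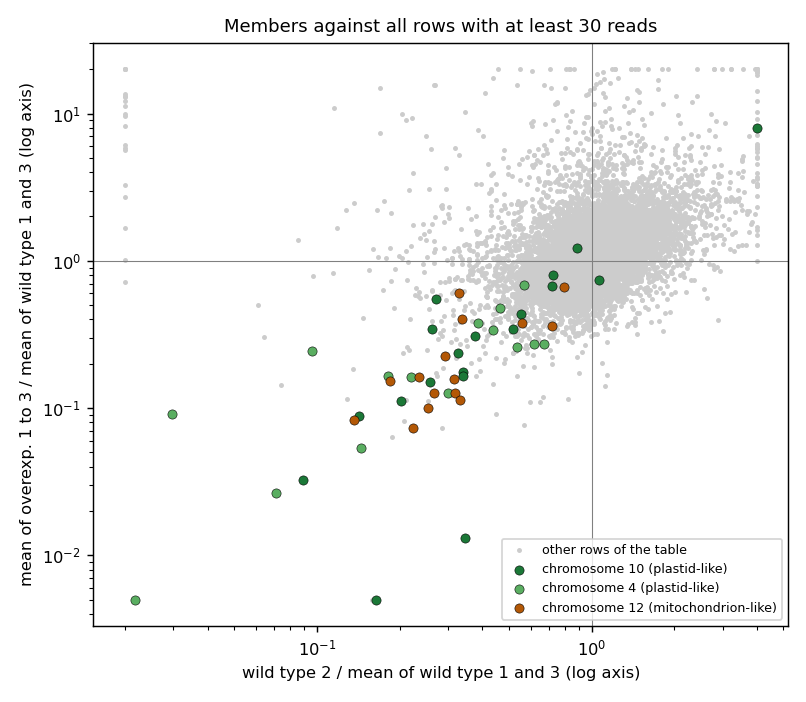
Each point is 1 row of the table with at least 30 reads; the horizontal axis is FPKM in wild-type replicate 2 divided by the mean of wild-type replicates 1 and 3, and the vertical axis is the overexpression mean divided by the same mean (both log axes, values beyond the plotted limits drawn at those limits). Most members lie at the lower left of the cloud of other rows, low in wild-type replicate 2 and lower in the overexpression line, and LOC_Os10g21190 lies at the upper right.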

How the data were processed

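Polyadenylated RNA (TRIzol extraction, oligo(dT) selection, stranded KAPA libraries, per the labels' protocols) was measured in 6 libraries. The authors deposited FPKM values per library, their log2 fold changes and their p-values, per the file headers. Tools listed without versions in the submitters' processing notes are HISAT2 and SAMtools, featureCounts, DESeq2, FastQC with cutadapt, and deepTools. The sources used here do not give the build, the annotation, the strand setting or the handling of multiply matching reads. Row names were locus numbers of 12 nuclear chromosomes (34068 rows) or ChrSy and ChrUn (51), and plastid and mitochondrial genes themselves were not analysed here.

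The 3 wild-type columns, whose names carry a digit of unstated meaning, were taken as wild type without tying a column to a repeat, and both lanes of a repeat count as 1 replicate. The members and lists were chosen with earlier results of these data known. Named loci were, in each insertion, the 6 of highest mean FPKM, up to 6 called with the largest change, those of highest CV in each genotype and the 2 of lowest summed FPKM. LOC_Os10g21250, LOC_Os10g21266, LOC_Os10g21298, LOC_Os10g21360, LOC_Os04g16736, LOC_Os04g16822, LOC_Os12g34012 and the 1629-base pair were added after their values were seen. The marker names rest on a list and could not be checked against the reference table, and for the same reason a list of nuclear genes of organelle transcription is not reported.

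For each row, the smallest whole length was taken at which every library held a whole number of reads. Such a length was found for 31219 of 31263 rows (99.859%, tolerance 0.01 of a read). Where all reads of a row share a factor with its true length, as can happen with few reads, recovered reads and length are lower bounds. The main test was limma 3.58.1 (R 4.3.3) with a variance trend on log2(FPKM + 1), two-sided, Benjamini-Hochberg adjusted at 0.05. The pseudocount understates changes of low loci. The recovery and the fit were tested on simulated data. Lengths were compared with RefSeq's organelle genes of assembly ASM3414082v1, used for names, lengths and order only. No sequences or coordinates are given, as no genome of the files' build was used here. Alternatives covered pseudocounts, filters, scalings, limma's voom on recovered reads, a replicate block, overexpression replicates 1 and 2 as 1 sample, and leaving out each library. Counting error is part of every value, and 3 libraries per genotype limit the precision.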

Additional observations from a re-analysis of the deposited data

How the results depend on the processing

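The members' calls on chromosomes 10, 4 and 12 (7, 2 and 5 lower, 0 higher) were 7, 2 and 5 with pseudocounts of 0.1 and 5, median-ratio, quantile and table-read scaling, and no variance trend. With voom they were 4, 2 and 4. With no filter chromosome 4 had 4, as it had with voom on rows of at least 10 reads, an alternative chosen after the data were seen, and with a mean FPKM of at least 5 chromosomes 4 and 12 had 1 each, since fewer members were tested. Leaving out 1 library gave 2 to 9, 1 to 5 and 1 to 7. Over all rows, calls lower were 2079 with table-read scaling, 2319 with overexpression replicates 1 and 2 as 1 sample and 1960 to 4098 without 1 library. Calls higher were 1592 at a mean of at least 5 and 1748 to 3078 without 1 library. The cause was not tested.

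Same-numbered libraries did not deviate together (correlations -0.00504, -0.00218 and -0.0449), so the numbers were not taken to pair them. A replicate block gave 8, 3 and 6 members lower, with 3126 lower and 2493 higher over all rows.

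The log2 change of LOC_Os10g21190, which did not pass in any alternative run, turned from -0.09 to 0.26 with a pseudocount of 5, to 0.29 with overexpression replicates 1 and 2 as 1 sample, and to between 0.68 and 0.77 without wild-type replicate 2 or overexpression replicate 1 or 3. Over all libraries left out singly it ran from -1.77, without overexpression replicate 2, to 0.77. Without division by length, the ratios of sums on chromosomes 10, 4 and 12 were 3.10, 10.1 and 4.50. At a mean FPKM of at least 5, where 1 member each remained, the wild-type CV on chromosome 4 was 91.5% and the overexpression CV on chromosome 12 was 30.4%. Depth limits the 34 members with fewer than 10 reads, where a few reads set the value.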

Other observations

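Rows elsewhere in the genome were searched for the library pattern seen at the insertions. Wild-type replicates 1 and 3 each had to exceed 1.5 times replicate 2, and at least 30 reads were required. Replicate 2 only had to lie above the highest overexpression library, by any margin. The rule was chosen after the members' values were seen, and the counts are descriptions with no test. It was met by 25 of the 49 members with that many reads (10 on chromosome 10, 7 on chromosome 4 and 8 on chromosome 12), by 0 of 120 flanking rows, and by 46 of 23867 rows outside the insertions (0.193%). Of the 46, 8 had the coding length of a plastid gene (17.4%). The share was 1.85% over all 31162 outside rows with any read, a wider set than those with at least 30 reads. These shares were not matched for length.

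Some of the 46 lie far from the 3 insertions. LOC_Os10g38276, also on chromosome 10 and with the same 744-base length as the insertion member LOC_Os10g21236, that of atpI, had 198, 46 and 122 reads in the wild type and 14, 17 and 12 in the overexpression line. LOC_Os06g39708, with the length of psbB, a gene for a core antenna protein of photosystem II, had 753, 418 and 632 against 156, 96 and 102. LOC_Os09g08910, with no organelle length, had 2122, 621 and 1236 against 257, 249 and 189. The order of the libraries in these rows is what the search asked for, and the 3 were picked from the 46 after their values were seen.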
